A study of Mus musculus with 12 samples.

Results

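The genes described here encode the proteins that license origins of DNA replication and run the replication fork. They are 37 genes of 14496 in the deposited table, chosen by symbol from the names of the replication machinery. The choice was made with earlier results of these data known. All 37 were found and passed the filter on low values. By role they are the 6 subunits of the MCM helicase, 6 genes of origin recognition and licensing, 6 of helicase activation, 4 of the DNA polymerase alpha-primase complex, 2 catalytic subunits of the replicative polymerases, 6 of the sliding clamp and its loader, 2 of the single-strand binding complex, 2 of Okazaki fragment joining and 3 of deoxynucleotide supply.

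In G1 phase the origin recognition complex, Cdc6 and Cdt1 load the MCM helicase onto DNA, and geminin blocks Cdt1 once S phase has begun so that no origin is licensed again. Cdc45 and the GINS complex then turn the loaded helicase into the active form, primase and polymerase alpha start each strand, and polymerases delta and epsilon extend it on the PCNA ring that the RFC complex loads. In tumors these genes are transcribed mainly in cells that are in the cell cycle, many of them under E2F transcription factors, and they are widely used as readouts of proliferation.

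RNA was sequenced from 12 whole subcutaneous tumors of Renca, a mouse renal carcinoma cell line, grown in mice of the BALB/C strain and taken on day 14 after inoculation. In 6 of them (IK) another tumor was growing in the kidney (intra-kidney), and the other 6 (SC) grew with no tumor in the kidney. The labels name no treatment or genetic change in either group. Whether the tumors of a group grew in different mice is not stated, so the p-values rest on the spread among these samples, which may be technical. Every library mixes tumor cells and stroma, so fewer cells of a type and less RNA per cell cannot be told apart.

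Each tumor had 53312559 to 66142468 reads, recovered from the deposited log2 CPM (read counts scaled to library size, with 0.5 reads added), and the lowest count of any replication gene in any tumor was 261 reads, for Fen1. Markers of tumor epithelium and kidney were present in all tumors at a summed 2490 to 2620 CPM in IK and 2370 to 2980 in SC, over the 7 of 8 found in the table, with Krt19 the marker not found. The keratin gene Krt8 stood at 9.98 log2 CPM in IK and 10.02 in SC, and the kidney lineage factor Pax8 at 6.57 and 6.70. Markers of other cell types differed more, and replicate 2 of IK and replicate 6 of SC each stood nearer to the opposite group in T cell and cytotoxic genes.

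Promoters of 29 of the 37 genes were in the RefSeq table used here, and their E2F sites are shown because many genes of this set are textbook E2F targets. The 250 bases before each annotated start were searched on both strands for the 4 E2F site forms TTTCCCGC, TTTGGCGC, TTTGCCGC and TTTCGCGC and for CCAAT, and overlapping matches were each counted. An E2F form was found in 8 of 34 member promoters (23.5%), against 3.09% of the 12832 promoters of tested genes. CCAAT was found in 21 of the 34 (61.8%), against 35% of promoters of tested genes. Genes with an E2F match were Cdc6, Gins3, Mcm5, Mcm6, Mcm7, Orc1, Pola1 and Rfc3. Sequences follow for the 3 of them whose window overlaps no annotated exon, in build GRCm38.p6, 5′ to 3′ on the gene's strand, with the E2F matches in capitals. The windows are chr8:75109259-75109508 on the plus strand for Mcm5, chr1:128359706-128359955 on the minus strand for Mcm6 and chrX:93632156-93632405 on the minus strand for Pola1.
Mcm5: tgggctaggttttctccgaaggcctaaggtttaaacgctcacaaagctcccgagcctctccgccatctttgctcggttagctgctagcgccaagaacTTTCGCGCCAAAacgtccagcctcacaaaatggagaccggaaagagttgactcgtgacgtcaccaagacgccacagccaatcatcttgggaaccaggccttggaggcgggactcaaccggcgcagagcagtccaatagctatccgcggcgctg
Mcm6: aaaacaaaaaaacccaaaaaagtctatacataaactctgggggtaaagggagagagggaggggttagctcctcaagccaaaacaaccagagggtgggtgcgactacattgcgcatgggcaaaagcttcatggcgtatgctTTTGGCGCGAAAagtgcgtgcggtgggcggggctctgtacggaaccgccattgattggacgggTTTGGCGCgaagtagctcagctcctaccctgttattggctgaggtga
Pola1: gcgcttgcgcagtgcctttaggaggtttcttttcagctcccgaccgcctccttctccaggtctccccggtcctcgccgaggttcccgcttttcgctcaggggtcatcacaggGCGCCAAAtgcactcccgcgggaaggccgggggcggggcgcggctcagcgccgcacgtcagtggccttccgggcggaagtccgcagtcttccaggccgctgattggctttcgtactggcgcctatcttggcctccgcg
In Mcm5 the 12 capital bases hold 2 matches that overlap, and in Mcm6 the longer run also holds 2, with the third match closer to the start, beginning 47 bases before it. Pola1 holds a single match that begins 138 bases before the start. A match of letters is a description of the window and does not show binding.

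Replication genes had slightly higher means in the subcutaneous tumors that grew beside a kidney tumor, and none passed the test. Of the 37 genes, 35 had a higher mean in IK, against 53.3% of all 14008 tested genes, and their median difference was 0.105 on the log2 scale, against 0.0074 over all tested genes. The largest differences were 0.20 for Rfc5, a subunit of the clamp loader (1.15-fold), 0.20 for Rfc4 of the same complex and 0.19 for Rrm2, a subunit of ribonucleotide reductase. Only Gins4 (-0.02) and Pold1 (-0.01) had a lower mean in IK, and both turned sign when single tumors were left out. Over the genes' 95% intervals the widest limits were -0.15, for Pold1, and 0.37, for Fen1, so that a difference of 2-fold lay outside the interval of each.

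With Benjamini-Hochberg adjustment over all genes, limma called 0 of the 37 genes, and 0 of all tested genes (0%), at the 0.05 threshold. Adjusted p ran from 0.432 to 0.931. The adjustment gives many genes of unlike unadjusted p the same value of 0.432. Limma's unadjusted p was 0.000246 for Gmnn, 0.000624 for Rfc5 and 0.0493 for Mcm5, each 0.432 after adjustment. At an unadjusted p under 0.05, limma counted 14 of the 37 genes, all higher in IK, against 5.86% of tested genes in that direction. A two-sided exact permutation test of the tumors counted 13 of the 37, against 5.71% of tested genes, and called 0 after adjustment. In 2 genes, Gmnn and Rfc5, all 6 IK tumors lay above all 6 SC tumors, a pattern seen in 0.278% of tested genes. For Gmnn this also held with quantile or median scaling and with voom on recovered reads, and for Rfc5 it was lost in each of the 3. Since the genes vary together between tumors, these counts are not 37 separate results.

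**Figure D1:**
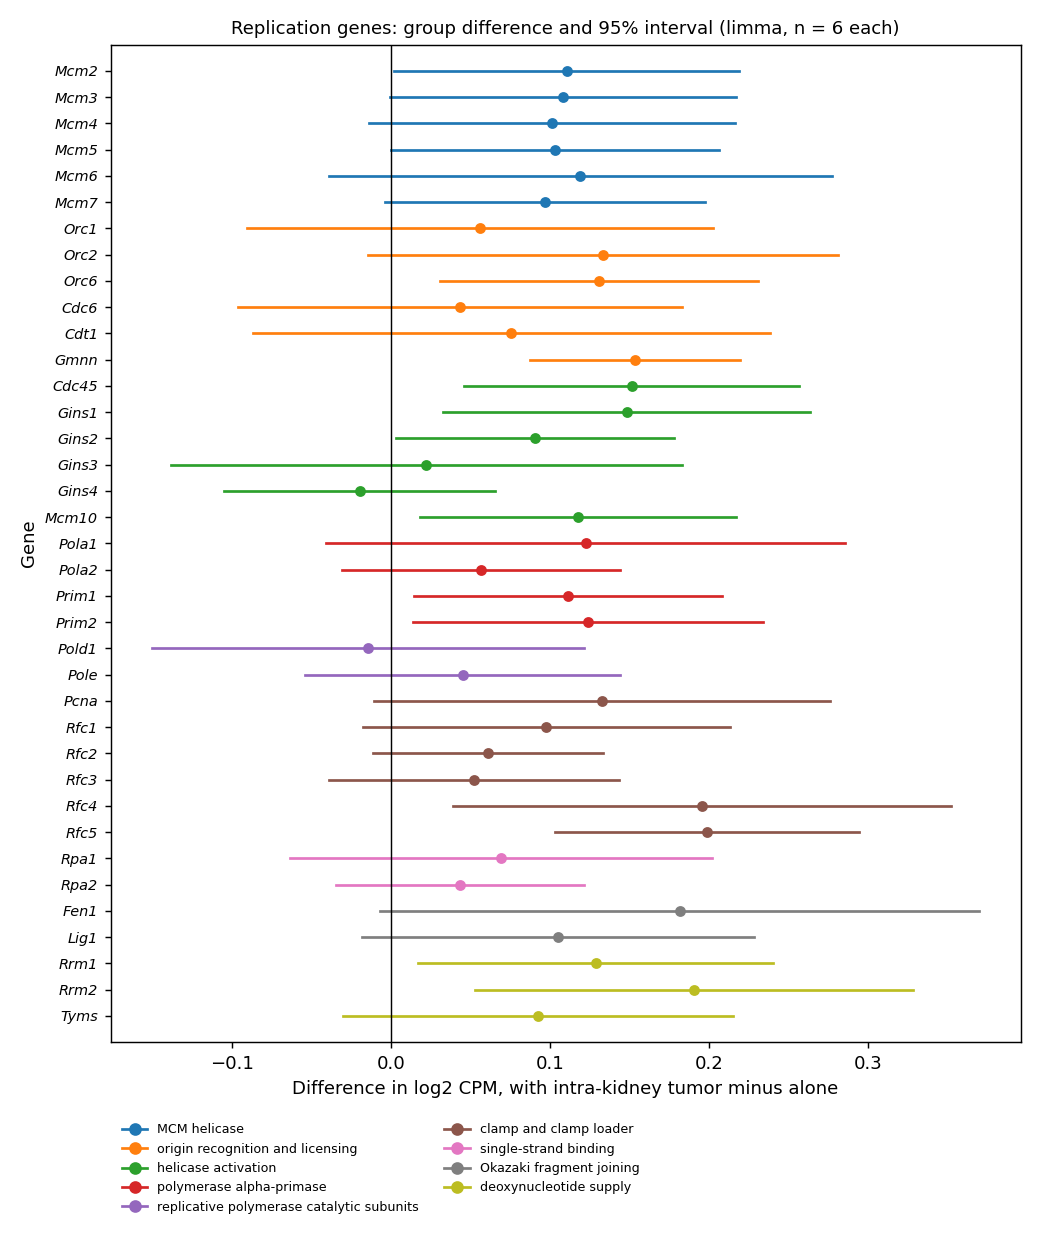
Difference in log2 CPM (IK minus SC, horizontal axis) of each replication gene with its 95% interval from limma over 6 tumors a group, colored by role. Points lie right of 0 for 35 of 37 genes, and the intervals of 14 genes leave out 0.

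The helicase subunits Mcm2 to Mcm7, which form the ring that unwinds DNA, had differences in a narrow band. They spanned 0.10 to 0.12 log2 units, with 6 of 6 higher in IK. Mcm2 lay at 7.36, 7.54 and 7.65 log2 CPM (lowest, median and highest tumor) in IK and at 7.29, 7.39 and 7.52 in SC. Most IK tumors, 4 of 6, were above the highest SC tumor, and the ranges overlapped. Mcm5 stood at 7.15, 7.24 and 7.45 in IK against 7.09, 7.15 and 7.21 in SC, with the highest value in replicate 3 of IK. Mcm6 ranged from 8.25 to 8.53 in IK (median 8.50) and from 8.09 to 8.55 in SC (median 8.37), so that its highest tumor was an SC tumor. Replicate 2 of IK lay far below the other 5 for Mcm6. Log2 differences were 0.11 ± 0.050 for Mcm2, 0.10 ± 0.048 for Mcm5 and 0.12 ± 0.073 for Mcm6 (SE). Mcm3, Mcm4 and Mcm7 differed by 0.11, 0.10 and 0.10, and the smallest adjusted p of the 6 was 0.432 (limma). About Mcm7 the count is less certain, as 23.3% of its 50-base windows also occur in transcripts of other genes, Ap4m1 and Gm5487 foremost.

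Among licensing genes the groups separated fully for the inhibitor geminin and for no other gene. Geminin, encoded by Gmnn, lay at 5.03, 5.10 and 5.13 log2 CPM in IK and at 4.88, 4.94 and 4.98 in SC. The groups did not overlap, and the spread within each was small (SD 0.036 and 0.038), near the counting error of 0.033 log2 units that its mean of 1936 reads gives. The difference was 0.15 ± 0.030 (SE; 95% interval 0.09 to 0.22), a 1.11-fold higher level, with limma's adjusted p of 0.432. Its exact permutation p was 0.00216, the smallest that reassigning 12 tumors can give, and 0.453 after adjustment over all genes. Cdt1, the loading factor that geminin binds, had a difference of 0.08 ± 0.075, and Cdc6, the ATPase that loads the helicase with it, 0.04 ± 0.064. The level of Cdt1 relative to Gmnn, as a log2 difference within each tumor, was 0.71 ± 0.14 in IK and 0.79 ± 0.11 in SC (SD, n = 6 each). Those ranges, 0.47 to 0.85 and 0.63 to 0.97, overlapped. This ratio was chosen after the values were seen and was not tested.

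The origin recognition complex marks origins on DNA. Its subunits in this set, Orc1, Orc2 and Orc6, had differences of 0.06 to 0.13 log2 units. The subunits Orc3, Orc4 and Orc5, counted below among the further replication genes, differed by 0.01, 0.05 and 0.07. Orc6 lay at 5.40, 5.47 and 5.59 log2 CPM in IK and 5.23, 5.34 and 5.49 in SC. For Orc6, 5 of 6 SC tumors were below every IK tumor, and the difference was 0.13 ± 0.046 (SE). Orc2 ranged from 6.16 to 6.45 in IK (median 6.36) and from 6.01 to 6.44 in SC (median 6.19). Although its difference was as large, 0.13 ± 0.068, its groups overlapped across most of their range. Orc1, the ATPase subunit, differed by 0.06 ± 0.068, and the smallest adjusted p of Orc1, Orc2 and Orc6 was 0.432 (limma). Counts of Orc2 are less certain, with 26.7% of its windows shared, chiefly with Nif3l1.

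Helicase activation held the widest mix. Cdc45, which joins the MCM ring at firing, lay at 5.51, 5.64 and 5.70 log2 CPM in IK and 5.36, 5.48 and 5.57 in SC. The difference was 0.15 ± 0.049 (SE), and 4 of 6 IK tumors were above every SC tumor. The 4 GINS subunits form a single complex with Cdc45 and the helicase, yet their differences ran from -0.02 to 0.15. Gins1 lay at 3.77, 3.86 and 3.90 in IK and 3.58, 3.68 and 3.86 in SC, a difference of 0.15 ± 0.053. Gins2 differed by 0.09, Gins3 by 0.02 and Gins4 by -0.02. Gins4 lay at 4.83, 4.95 and 4.99 in IK and 4.90, 4.93 and 5.04 in SC, with 2 SC tumors above every IK tumor and the rest of the SC tumors among the IK values. Mcm10, a scaffold that assists helicase activation, differed by 0.12 ± 0.046, with 5 of 6 IK tumors above every SC tumor. Adjusted p was 0.432 or more for each of the 6 (limma), and the differences between the GINS subunits were not tested. The value of Gins2 is uncertain, because 65.4% of its windows are shared with other genes, chiefly Gse1.

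**Figure D2:**
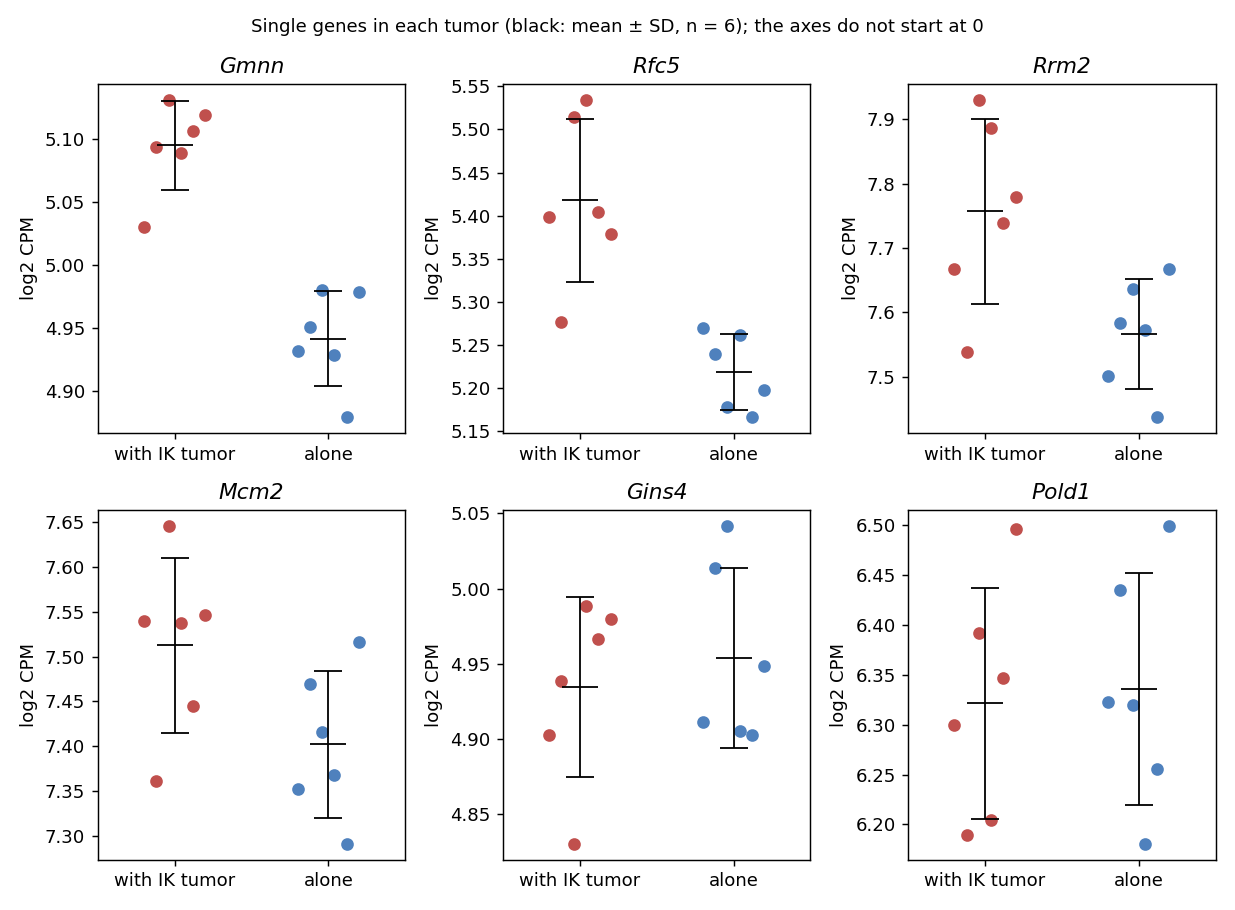
Log2 CPM in each tumor for 6 replication genes, IK in red and SC in blue, with mean and SD in black. Gmnn and Rfc5 show no overlap of the groups on the deposited scale (Rfc5 overlaps with other scalings), Rrm2, Mcm2 and Gins4 overlap in part, and for Pold1 all IK tumors lie within the range of the SC tumors.

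Primase and polymerase alpha, which lay down the RNA-DNA primer, were higher in IK in 4 of 4 genes. Prim1, the catalytic primase subunit, lay at 5.67, 5.77 and 5.82 log2 CPM in IK and 5.49, 5.67 and 5.76 in SC. Prim2, its partner subunit, lay at 5.60, 5.67 and 5.82 in IK and 5.39, 5.59 and 5.65 in SC. In each of these genes 3 of 6 IK tumors were above every SC tumor. Differences were 0.11 ± 0.045 for Prim1 and 0.12 ± 0.051 for Prim2 (SE). The catalytic polymerase subunit Pola1 had a like difference, 0.12 ± 0.075, but a wider spread, from 5.99 to 6.43 in IK (median 6.21) and 5.84 to 6.22 in SC (median 6.13). Pola2, the accessory subunit, differed by 0.06. The catalytic subunits of the bulk polymerases differed least among the roles. Pold1, of the lagging-strand polymerase delta, lay at 6.19, 6.32 and 6.50 in IK and at 6.18, 6.32 and 6.50 in SC. Pole, of the leading-strand polymerase epsilon, lay at 5.68, 5.74 and 5.94 in IK and 5.66, 5.70 and 5.82 in SC, a difference of 0.05 ± 0.046. For Pold1 the 95% interval was -0.15 to 0.12 and for Pole -0.054 to 0.14. Limma's adjusted p over these 6 genes ran from 0.432 to 0.931.

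The clamp loader held the largest differences of the set. Rfc5 lay at 5.28, 5.40 and 5.54 log2 CPM in IK and at 5.17, 5.22 and 5.27 in SC, with no overlap on the deposited scale. Its difference was 0.20 ± 0.044 (SE; 95% interval 0.10 to 0.29), with an exact permutation p of 0.00216 and limma's adjusted p of 0.432. Rfc4 lay at 5.17, 5.26 and 5.44 in IK and 4.78, 5.15 and 5.21 in SC, a difference of 0.20 ± 0.072. Replicate 5 of SC, at 4.78, was far below the other SC tumors for Rfc4. The other subunits of the same loader differed less, with 0.10 for the large subunit Rfc1, 0.06 for Rfc2 and 0.05 for Rfc3. Pcna, the clamp itself, differed by 0.13 ± 0.066. In transcripts of other genes 13.3% of the windows of Rfc5 recur (Wsb2 and Gm12870), 9.14% of Rfc4 (Eif4a2), 16% of Rfc2 and 19.1% of Pcna (its pseudogene Pcna-ps2).

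Single-strand binding and fragment joining followed the same direction without a call. Rpa1, the large subunit that coats single strands, lay at 7.18, 7.39 and 7.47 log2 CPM in IK and 7.07, 7.34 and 7.40 in SC. Rpa2, the subunit phosphorylated under replication stress, lay at 5.45, 5.48 and 5.51 in IK and 5.34, 5.44 and 5.52 in SC. Differences were 0.07 ± 0.061 and 0.04 ± 0.036 (SE). Lig1, the ligase that seals Okazaki fragments, lay at 6.67, 6.84 and 6.95 in IK and 6.61, 6.74 and 6.91 in SC, a difference of 0.11 ± 0.057. The flap endonuclease gene Fen1 lay at 2.33, 2.59 and 2.66 in IK and 2.21, 2.32 and 2.64 in SC, a difference of 0.18 ± 0.087. That low level is uncertain, since 76.7% of the windows of Fen1 also occur in other transcripts, chiefly Gm10143 and Tmem258. The smallest adjusted p of the 4 genes was 0.443 (limma).

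Deoxynucleotide supply was higher in IK in 3 of 3 genes. Rrm2, the cell-cycle-regulated subunit of ribonucleotide reductase, lay at 7.54, 7.76 and 7.93 log2 CPM in IK and 7.44, 7.58 and 7.67 in SC. Above every SC tumor were 5 of 6 IK tumors. The difference was 0.19 ± 0.064 (SE; 1.14-fold). Rrm1, the large subunit, lay at 7.48, 7.65 and 7.81 in IK and 7.39, 7.54 and 7.60 in SC, a difference of 0.13 ± 0.052. Tyms, thymidylate synthase, differed by 0.09 ± 0.057, and the smallest adjusted p of the 3 was 0.432 (limma).

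Levels of the genes were compared with each other per length, as log2 RPKM (log2 CPM less the log2 of exon length in kilobases), averaged over the 12 tumors. Pcna was highest at 8.52 ± 0.14, followed by Rrm2 at 6.53 ± 0.15 and Mcm3 at 6.39 ± 0.10 (SD over 12 tumors). The 6 helicase subunits, which act as a ring with a copy of each, lay between 5.41 (Mcm5) and 6.39 (Mcm3). GINS subunits, also used in equal number, lay between 2.43 (Gins3) and 4.51 (Gins4), a wider range than the MCM ring. Clamp loader subunits lay between 3.25 (Rfc2) and 4.80 (Rfc4). Orc1 at 1.59 and Cdc6 at 2.47 were low among the licensing genes, where Gmnn, Orc6, Cdt1 and Orc2 lay at 4.43 to 4.77. Fen1, at 1.19, was the lowest. The counts' own annotation is not known here, and lengths from a newer one shift a gene by the same amount in every tumor. Between genes they can change the order and the ranges given here. Levels of genes with much shared sequence, such as Fen1 (76.7% of windows) and Gins2 (65.4%), are uncertain as well.

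**Figure D3:**
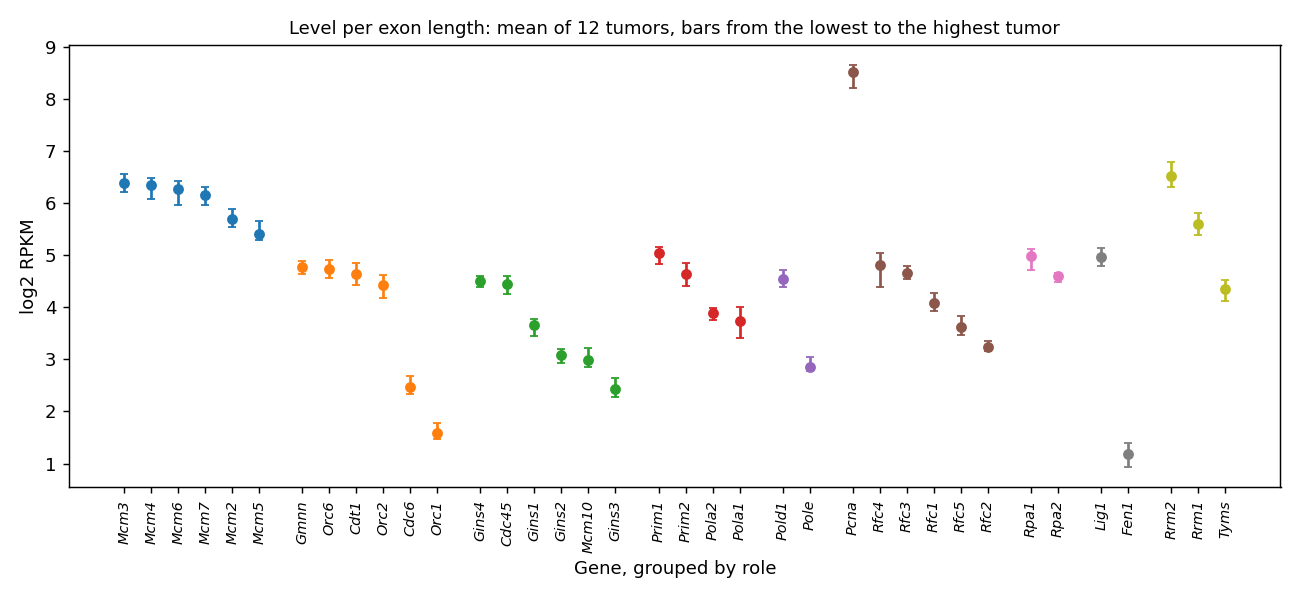
Level per exon length (log2 RPKM) of the 37 genes, grouped by role in the order of the text, as the mean of 12 tumors with bars from the lowest to the highest tumor. Pcna stands at 8.52, the MCM genes between 5.41 and 6.39, and Orc1 and Fen1 below 2.

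Which tumors were high or low was much the same across the genes. Replicate 3 of IK held the highest value of all 12 tumors for 20 of the 37 genes, and replicate 5 of SC the lowest for 22. Within IK, replicate 2 was the lowest tumor for 21 genes. Within SC, replicate 6 was the highest for 22. The mean over the 37 genes was 6.02 ± 0.062 log2 CPM in IK and 5.91 ± 0.072 in SC (SD, n = 6 each), with ranges of 5.93 to 6.11 and 5.80 to 6.00. Above every SC tumor on this mean were 3 of 6 IK tumors.

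After the group means were taken out, pairs of replication genes varied together across the 12 tumors. Over 666 pairs the median Pearson r was 0.47 and the median Spearman rho 0.47, and 89.2% of pairs were positive. Without the tumors whose mean deviation lay farthest from the median, replicate 2 of IK and replicate 5 of SC, the median r was 0.43. Group means were kept as over all tumors in that step. The choice of replicate 2 over replicate 3 of IK was a near tie, with replication means of 5.93 and 6.11 around a group mean of 6.02. Each pair shares its libraries, their depth and their mix of cells, so these values are a description. Pairs of all tested genes were not measured, so the values are not shown to be particular to this set. Against the mean of the other 36 genes, 20 of 37 genes had an r of at least 0.7, led by Mcm4 (r = 0.945, rho = 0.97) and Prim1 (r = 0.943, rho = 0.95). The weakest were Rfc2 (r = -0.35), Gins4 (0.14), Gins1 (0.20), Pola2 (0.21) and Cdc6 (0.23). In that order, their SD within groups was 1.82, 1.78, 1.65, 2.29 and 3.17 times the counting error. For Mcm4 the SD was 8.75 times that error, and for Prim1 2.96. Gmnn, where it was 1.12 times, had an r of 0.73. What part read noise has in the weak values was not tested. Between tumors of a group the genes had a median SD of 0.09 log2 units, against 0.11 over all tested genes, which were not matched for level.

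**Figure D4:**
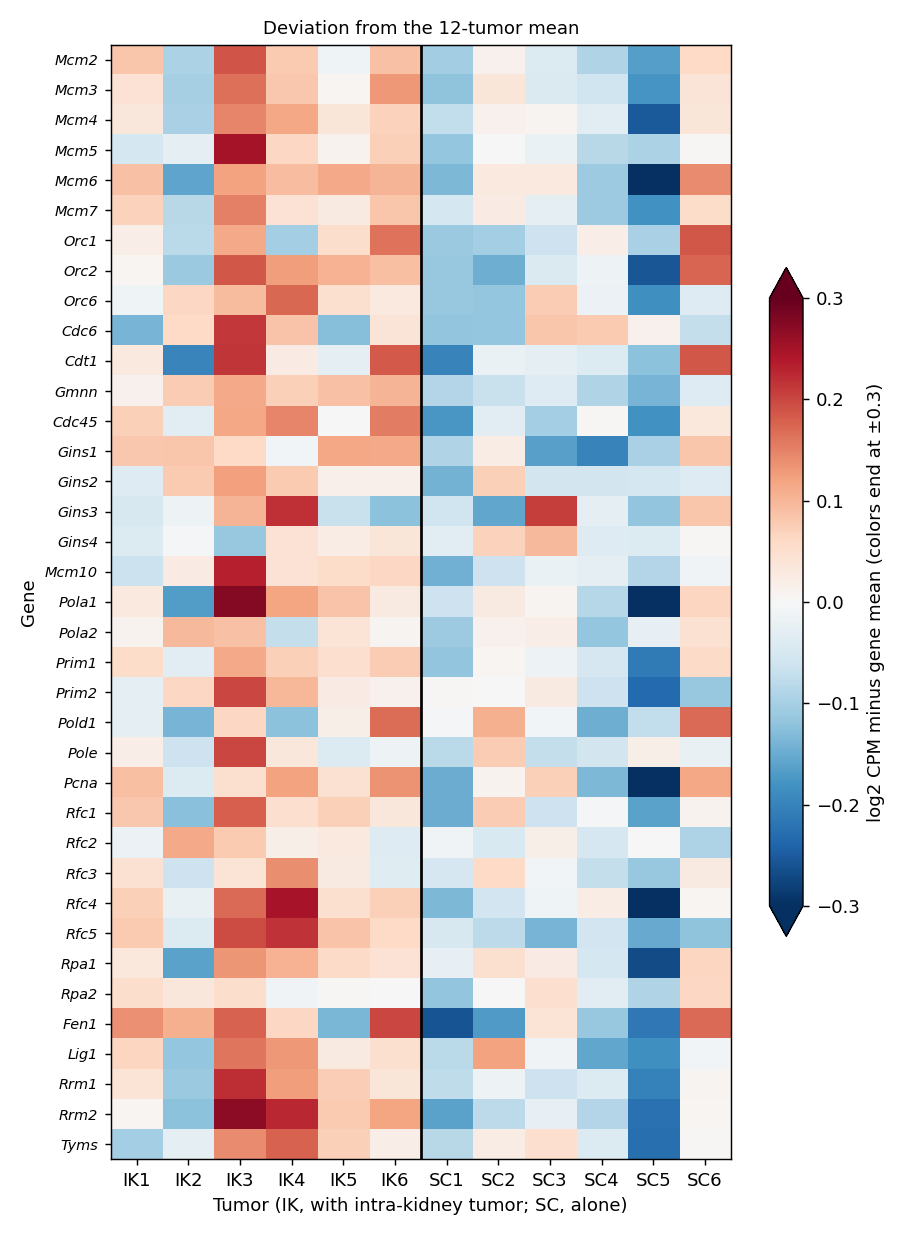
Deviation of each replication gene (rows) from its mean over the 12 tumors (columns), in log2 CPM, with colors ending at ±0.3. Replicate 3 of IK is above the mean for 36 of 37 genes, and replicates 1, 4 and 5 of SC for 1, 4 and 2.

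Most other genes of the replication pathway and cell cycle also had higher means in IK, and none passed the test. Of 35 further replication genes, 34 were higher in IK with a median of 0.09, and 0 were called (6 at an unadjusted p under 0.05, limma). Of all tested genes, 5.86% were higher in IK at that unadjusted p (limma). Pole2, the second subunit of polymerase epsilon, differed by 0.19 ± 0.052 (SE), and Mcm8, a helicase relative that acts in recombination, by 0.23 ± 0.063. Of 13 E2F and pocket protein genes, 10 were higher, with a median of 0.10 and 0 called (2 at an unadjusted p under 0.05). Its activators E2f1, E2f2 and E2f3 differed by 0.17 ± 0.062, 0.24 ± 0.13 and 0.08 ± 0.054, and the pocket protein gene Rbl1 by 0.15 ± 0.065. Of 12 tested genes for G1-S cyclins, their kinases and inhibitors, 10 were higher, with a median of 0.07 and 0 called (1 at an unadjusted p under 0.05). Ccne2, a cyclin of the G1-S transition, differed by 0.28 ± 0.11 and the inhibitor gene Cdkn1a by 0.34 ± 0.18. The cyclin D gene Ccnd2 had the opposite and largest difference of these lists, -0.56 ± 0.31 (unadjusted p = 0.0972, adjusted p = 0.475, limma), and is named because of that value. Checkpoint and fork repair genes were higher in 14 of 15 with a median of 0.08, 0 called and 3 at an unadjusted p under 0.05, among them the checkpoint clamp loader gene Rad17 (0.10 ± 0.042). Adjusted p was 0.432 or more for every gene of these lists (limma).

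Mitosis genes had higher means in IK in 20 of 20, with a median difference of 0.12 and 0 called (limma). At limma's unadjusted p under 0.05, 10 of them were higher, against 5.86% of all tested genes. Cdk1 differed by 0.19 ± 0.049 and Bub1 by 0.25 ± 0.087 (SE). Their mean was 6.58 ± 0.13 log2 CPM in IK and 6.45 ± 0.082 in SC (SD, n = 6 each). Subtracting it from the replication mean within each tumor gave -0.56 ± 0.078 in IK and -0.53 ± 0.054 in SC, with overlapping ranges. That difference was not tested.

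Most markers of immune and stromal cells had lower means in IK, and none passed the test after adjustment. Pan-leukocyte markers were lower in IK in 7 of 8 genes, with a mean of 6.86 ± 0.25 in IK and 7.09 ± 0.27 in SC (log2 CPM, SD, n = 6 each). Their summed level was 957 to 1520 CPM in IK and 927 to 1620 in SC, and 0 of the 8 were at 0 reads. T cell and cytotoxic markers were lower in 10 of 10 genes, summed at 13.4 to 106 CPM in IK and 20.6 to 129 in SC. Fibroblast markers were lower in 8 of 8, summed at 5180 to 12900 CPM in IK and 5300 to 16400 in SC. Macrophage markers were lower in 7 of 8 (2050 to 2830 CPM and 2030 to 2730), endothelial in 6 of 6 (151 to 227 and 147 to 278) and fat cell in 3 of 3 tested (6.14 to 23.9 and 9.02 to 43.3). Markers of tumor epithelium and kidney were also lower in IK in 6 of 7, with a median difference of -0.07, and their summed levels are given above. Hypoxia-inducible genes were higher in 8 of 9, summed at 2530 to 4920 CPM in IK and 2300 to 3980 in SC. Skeletal muscle markers were higher in 4 of 5 tested, at 35.1 to 178 CPM and 2.66 to 384, with 1 marker at 0 reads in some tumor. The sums take every marker with deposited values, tested or not. They thus include the untested Plin1 among fat cell markers and Tnnc2 among skeletal muscle markers. Limma called 0 genes of these lists. At an unadjusted p under 0.05 it counted 10 T cell and cytotoxic genes and 2 fat cell genes as lower, 5 hypoxia-inducible genes as higher, and 0 of the others. Of all 14008 tested genes it counted 787 as lower and 821 as higher.

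Some tumors stood at opposite ends in leukocyte and replication levels, and others did not. Replicate 2 of IK, the lowest of its group in the replication mean (5.93), had the highest pan-leukocyte mean of its group, 7.36 against 6.70 to 6.82 in the other 5. Replicate 5 of SC, the lowest of all tumors in the replication mean (5.80), had the highest pan-leukocyte mean of all, 7.45. Replicate 6 of SC, the highest of its group in the replication mean (6.00), had the lowest pan-leukocyte mean of all, 6.65. Replicate 3 of IK, the highest of all 12 tumors in the replication mean (6.11), had a pan-leukocyte mean of 6.82, the highest in IK after replicate 2. With the pan-leukocyte mean as a covariate in limma, 32 of 37 replication genes were higher in IK, against 50.9% of all tested genes, and the median difference was 0.047 in place of 0.105. In that fit 6 genes in place of 14 were higher at an unadjusted p under 0.05, while the share of all tested genes was 3.41% in place of 5.86%. Gmnn and Rfc5 then differed by 0.14 and 0.17. What part the mix of cells has in the difference was not tested beyond this fit.

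**Figure D5:**
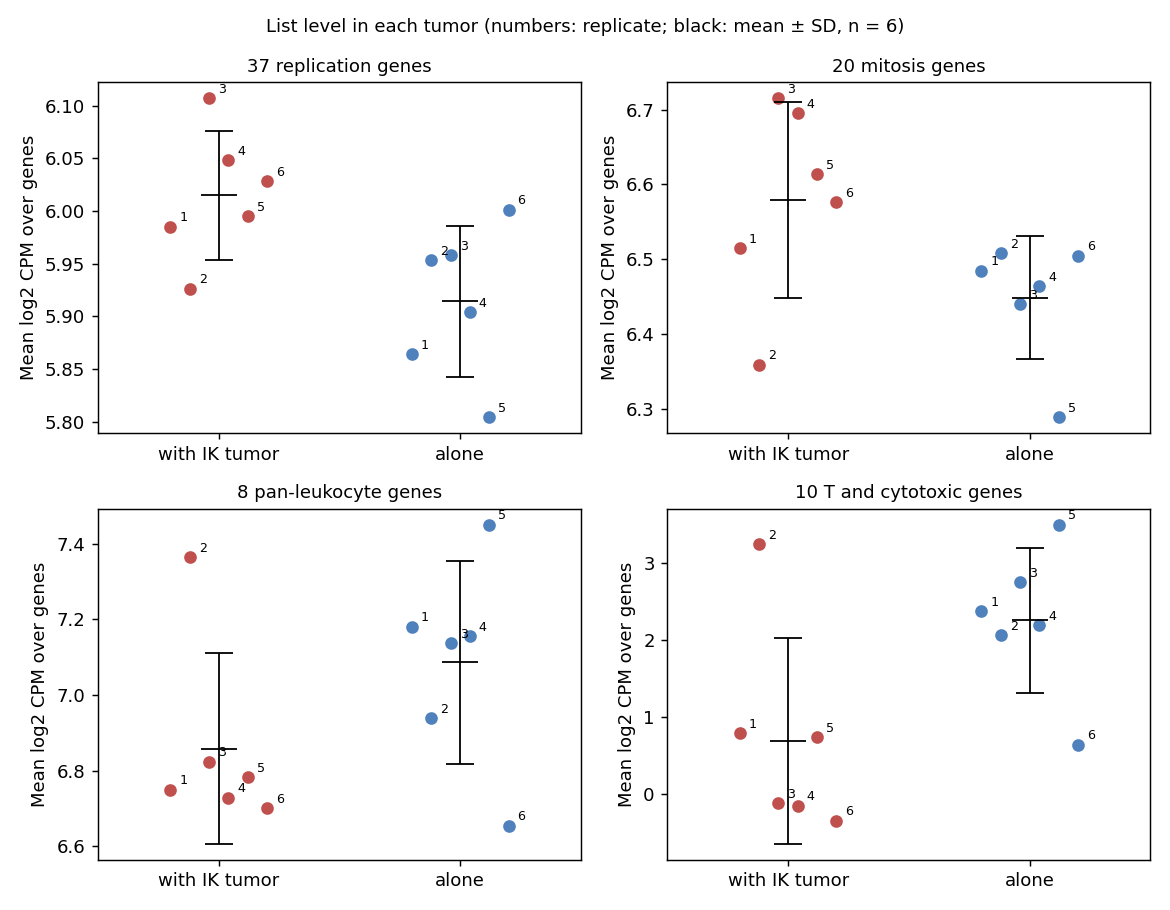
Mean log2 CPM over the genes of 4 lists in each tumor, with replicate numbers, and mean and SD in black. In the replication and mitosis panels replicate 2 of IK and replicate 5 of SC are lowest in their groups, and in the pan-leukocyte and T cell panels the same tumors are highest.

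Single tumors changed how many replication genes were called. Without replicate 2 of IK, limma called 2 of 37, Gmnn (adjusted p = 0.0486) and Rfc5 (adjusted p = 0.0339), against 1.22% of all tested genes, and 22 genes were higher at an unadjusted p under 0.05, against 12.4% of all tested genes. With weights for each tumor limma called 3, Gmnn, Rfc5 and Rrm2, against 3.89% of all tested genes. Without replicate 3 of IK or replicate 5 of SC, 8 genes in place of 14 were higher at an unadjusted p under 0.05, against 4.39% and 3.04% of all tested genes. Without replicate 4 of IK or replicate 1 of SC there were 9, against 3.23% and 3.83%. In each of these 4 fits the share over all tested genes was also under the 5.86% of all 12 tumors.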

How the data were processed

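The 12 tumors are separate samples in the labels, 6 per group. Per the submitters' processing notes, CASAVA 1.8.2, TopHat 1.4.1, HTSeq, limma and mouse build mm9 were used; how strand was handled, and which annotation was counted, is not given in the sources used here, so reads of overlapping or antisense genes cannot be told apart. The authors deposited log2 CPM values of 14496 genes. In every column they gave back whole reads within 0.001 of a read for 100% of values. Symbols came from a newer annotation by identifier (14004 genes). Values were used without further scaling. The test took the 14008 genes that reached 0 log2 CPM in 6 or more tumors, with limma 3.58.1 in R 4.3.3 (trend on the mean level, two-sided, Benjamini-Hochberg over all tested genes). Single genes were also compared by exact permutation over all assignments of the tumors. The limma test was first run on simulated data with known changes, drawn for each gene independently. Those changes were larger than any difference of the replication genes. That run therefore cannot show how the test does on differences this small or on genes that vary together.

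Exon lengths are those of GENCODE M21 and promoters those of RefSeq. Shared sequence is the share of a gene's 50-base transcript windows found, on either strand, in transcripts of other GENCODE genes. Overlap with a gene on the opposite strand is therefore counted as shared too. Values in every group are given for the 2 genes of largest difference and the 2 of smallest p in each role. They are also given for genes against the common direction. Of each further list the 2 genes of smallest p and the E2F activators are named, with Orc3, Orc4 and Orc5 beside their complex. A gene that this rule named is not reported here. Other genes are given by role, and members and lists were chosen with earlier results of these data known. Alternatives were other filters, scalings, variance models, tumor weights, a replicate block, a leukocyte covariate, voom on recovered reads, exact permutation and leaving out each tumor.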

Additional observations from a re-analysis of the deposited data

Results flagged for a closer look

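Of 76 sets of 6 tumors screened (each replication gene and the mean of all, in each group), 5 had a tumor whose gap to its nearest neighbour exceeded Dixon's 95% critical value as a share of the group's range. Chance marks about 1 in 20 sets. Replicate 2 of IK stood low for Mcm6 (8.25 log2 CPM, next 8.49, gap 0.884 of the range) and for Rpa1 (7.18, next 7.37, gap 0.656). Replicate 5 of SC stood low for Rfc4 (4.78, next 5.06, gap 0.636) and Rpa1 (7.07, next 7.29, gap 0.645). Replicate 3 of IK stood high for Pole (5.94, next 5.78, gap 0.633).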

How the results depend on the processing

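Over 23 alternatives, 32 to 36 of the 37 replication genes were higher in IK, and the median difference ran from 0.0467 (leukocyte covariate) to 0.129 (without replicate 2 of IK). Of these, 6 leave each gene's difference of means as it is; under the other 17, 618 of 629 single-gene values kept their direction, and the 11 that turned belong to 6 genes. Pold1 was 0.00949 with array weights. With single tumors left out, Pold1 ranged from -0.049 to 0.0186, Gins3 from -0.019 to 0.0664 and Gins4 from -0.0304 to 0.0012. Orc1, Cdt1 and Rpa1 were -0.00356, -0.0207 and -0.0158 with the leukocyte covariate. The cause was not tested. Limma called 545 of all genes with array weights and 1 without the variance trend, and 0 to 171 with single tumors left out. Of replication genes it called 3 with array weights and 0 to 2 with single tumors left out. Unadjusted p under 0.05 held for 6 with the covariate and 8 to 22 with single tumors left out (3.41%, and 3.04% to 12.4%, of all tested genes). Groups without overlap were seen for 1 gene with quantile scaling, with median scaling and with voom, and for 2 to 5 with single tumors left out. The share of all tested genes without overlap was taken only for the 12 tumors on the deposited scale. These counts therefore have no share to be read against. The labels do not state that replicate numbers pair the tumors. Correlations of same-numbered tumors' deviations ran from -0.31 to 0.45, and 1 of 12 tumors correlated best with its own number. Such correlations cannot show whether the tumors were paired, since other differences between tumors also enter them. With a replicate block 0 genes were called, the median difference was 0.105, and 15 replication genes had an unadjusted p under 0.05 (5.51% of all tested genes, higher in IK). The spread within groups was a median of 3.38 times the counting error of the mean read count, and under 2 times for 8 of the 37 genes, lowest for Gmnn (1.12).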
